A study of Homo sapiens with 26 samples.

Results

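HSD17B11 and its paralogs HSD17B4, HSD17B10 and HSD17B12 are 17-beta-hydroxysteroid dehydrogenases, 4 of the 12325 transcripts with codon-level read counts. HSD17B11 was chosen because its footprints differed between PF-06446846 and vehicle, so its ribo-seq differences are described here without a test. The other 3 were chosen as its relatives by name. All of the data came from Huh7, a human hepatocellular carcinoma cell line. In the first study, 18 ribo-seq libraries covered the compound at 1.5 and 0.3 μM and vehicle, harvested at 10 or 60 min, with 3 replicates each. In the second, 4 ribo-seq and 4 mRNA-seq libraries covered 1.5 μM and vehicle after 60 min, with replicates 4 and 5. Vehicle cells received 0.5% DMSO, the solvent of the compound. The study was designed to ask which transcripts change in translation when cells meet this small molecule, which acts on the ribosome.

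Ribo-seq sequences the short mRNA fragments that ribosomes shield from nuclease, and each fragment is assigned to the codon in the P-site, where the growing peptide is held. A codon at which ribosomes wait therefore collects many footprints. The HSD17B enzymes are mostly short-chain dehydrogenases that oxidise or reduce steroids, retinoids and acyl chains, and their names reflect a first assay on steroids more than a shared task. HSD17B11 sits on the endoplasmic reticulum and lipid droplets, HSD17B4 breaks down very long and branched acyl chains in peroxisomes, HSD17B10 is a mitochondrial enzyme of isoleucine breakdown and a subunit of mitochondrial RNase P, and HSD17B12 reduces 3-ketoacyl-CoA in fatty acid elongation at the endoplasmic reticulum.

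The coding sequences (CDSs) below come from GRCh38 with the GENCODE v44 annotation. The first 4 lines give codons 7 to 16 of each member, with codon 16 in capitals, because codon 16 held the footprint peak of HSD17B11. The 3 paralogs are shown at the same position for contrast. The last 2 lines end at codon 50 of HSD17B11, its highest peak after codon 20 in vehicle cells at 10 min, and at codon 170 of HSD17B12, again with the named codon in capitals.
HSD17B11, codons 7 to 16: atcctcctgcttctcccgttactgatcGTC
HSD17B4, codons 7 to 16: ttcgacgggcgggtggtactggtcaccGGC
HSD17B10, codons 7 to 16: agcgtgaagggcctggtggcggtaataACC
HSD17B12, codons 7 to 16: gccgccggcttcctgtactgggtcggcGCG
HSD17B11, codons 41 to 50: attacaggagctgggcatggaattgggAGA
HSD17B12, codons 161 to 170: aatattctttctgtttgtaagatgacaCAA

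The HSD17B11 windows lie in coding exon 1 at chr4:87391023-87391052 and chr4:87390921-87390950 on the minus strand. The HSD17B4 window is in exon 1 at chr5:119452594-119452623 on the plus strand. That of HSD17B10 runs over the junction of exons 1 and 2, so its span of chrX:53433866-53434327 on the minus strand includes an intron. HSD17B12 codons 7 to 16 lie at chr11:43680846-43680875 on the plus strand, and its codons 161 to 170 span chr11:43816371-43830984 across exons 6 and 7 with the intron between them. The CDS has 301 codons with the stop in HSD17B11 (ENST00000358290, 7 coding exons), 719 in HSD17B4 (ENST00000515320, 23 exons), 262 in HSD17B10 (ENST00000168216, 6 exons) and 313 in HSD17B12 (ENST00000278353, 11 exons).

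Leucine codons (CTN, TTA or TTG) filled 9 of codons 2 to 20 in HSD17B11. Only 0.754% of 10342 annotated CDSs had as many there, and the median was 2. HSD17B4 and HSD17B12 had 2 and HSD17B10 had 1. Whether leucine content bears on the codon 16 peak was not tested, and the other CDSs with as many were not examined. The paper concludes that no simple sequence motif predicts where the compound makes ribosomes wait. A GTC at codon 16, as in HSD17B11, was present in 1.60% of the CDSs. None of the 878, 2132, 761 and 914 stretches of 26 bases in HSD17B11, HSD17B4, HSD17B10 and HSD17B12 occurred in any of the 10341 other CDSs searched, so a fragment of that length from one member did not match another member exactly.

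Total reads on CDSs ran from 6414227 to 22224137 per library. Among 11 hepatocyte markers, 10 were found and had reads in every library, with a summed level of 20335 to 32664 RPM (reads scaled to a library of 1000000 reads on CDSs) in ribo-seq. Albumin was not analysed here. Of 10 markers of other cell types, PECAM1 and ACTA2 were found, with a summed 312 to 847 RPM in ribo-seq, and ACTA2 shares sequence with other actins. The first study calls its replicates biological and the labels name no separate cultures, so the p-values here measure the spread between these libraries only.

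HSD17B11 footprints were concentrated on codon 16 in every library treated with PF-06446846. After 10 min, the codon held 21.7, 20.5 and 18.7 RPM at 1.5 μM in replicates 1, 2 and 3, and 1.16, 1.52 and 2.24 RPM in vehicle. The 0.3 μM libraries lay between, at 13.2, 8.09 and 10.0 RPM, and no 2 of the 3 groups overlapped. The mean at 1.5 μM was 20.3 ± 1.49 RPM (SD, n = 3) and that of vehicle was 1.64 ± 0.548 (SD, n = 3), a ratio of 12.4, and the ratio for 0.3 μM was 6.38.

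At 60 min the order of the groups was the same. Codon 16 of HSD17B11 held 19.1, 24.7 and 34.5 RPM at 1.5 μM, 9.44, 7.33 and 11.8 RPM at 0.3 μM, and 0.156, 1.29 and 1.69 RPM in vehicle. The vehicle value of 0.156 RPM in replicate 1 is a single read, so the ratio of the means, 25.0 at 1.5 μM and 9.12 at 0.3 μM, rests on few vehicle reads (1, 20 and 17). These libraries again fell into 3 groups without overlap.

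The second study gave a smaller peak at the same codon. Codon 16 held 7.79 and 9.09 RPM of HSD17B11 reads at 1.5 μM (95 and 123 reads) and 0.437 and 0.113 RPM in vehicle (6 reads and 1 read). In mRNA-seq of the same samples it held 0.163 and 0.394 RPM with the compound and 0.167 and 0 RPM without, so no peak was seen in the fragmented mRNA.

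As a share of all HSD17B11 footprints, codon 16 took a mean 39.97% ± 3.43 (SD, n = 3) at 1.5 μM, 12.8% ± 3.13 at 0.3 μM and 1.45% ± 0.696 in vehicle after 10 min. The corresponding shares after 60 min were 44.1% ± 12.04, 12.6% ± 4.70 and 1.20% ± 0.989. In the second study they were 18.7% ± 0.779 at 1.5 μM and 0.303% ± 0.273 in vehicle (SD, n = 2).

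**Figure D1:**
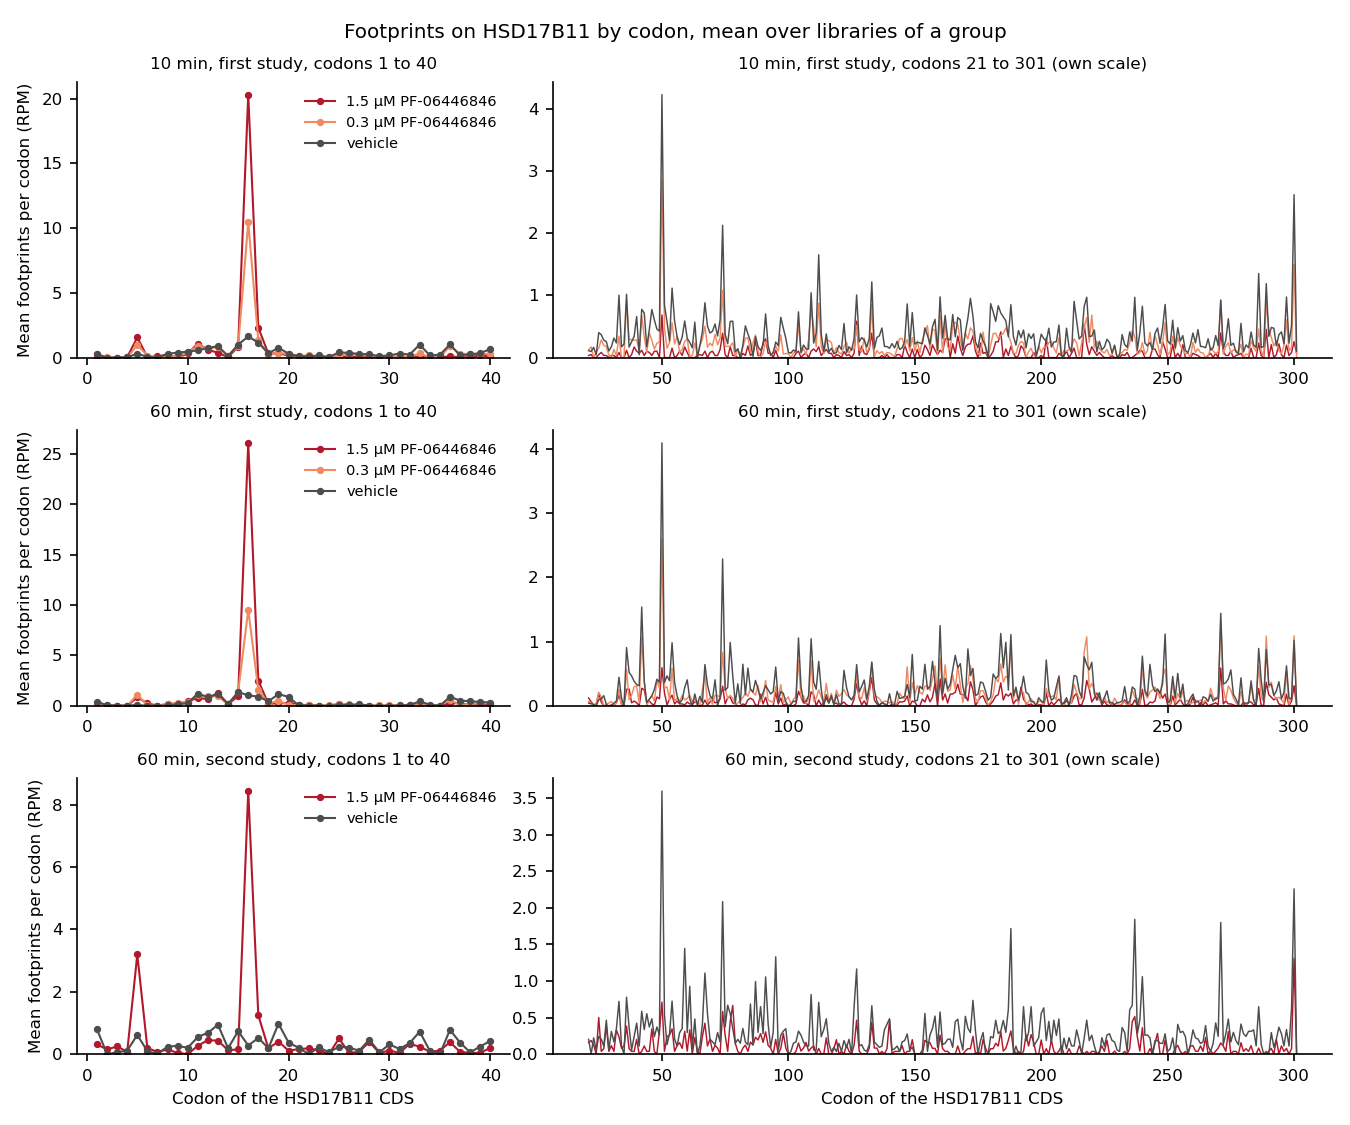
Mean footprints on HSD17B11 (y axis, RPM) against codon (x axis), with codons 1 to 40 on the left and codons 21 to 301 on the right on a scale of their own, for 1.5 μM, 0.3 μM and vehicle in the first study and for 1.5 μM and vehicle in the second. Codon 16 stands at 20.3 RPM at 1.5 μM and 1.64 RPM in vehicle after 10 min, while vehicle is the higher trace along most of the rest of the CDS.

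Next to the peak, codon 17 held 2.32 RPM at 1.5 μM and 1.15 RPM in vehicle after 10 min, and the groups did not overlap. After 60 min its means were 2.51 and 0.910 RPM, with overlapping libraries. Codon 5, which is 11 codons upstream of the peak, stood out as well. Its mean RPM was 1.57 at 1.5 μM and 0.311 in vehicle after 10 min and 3.198 and 0.615 in the second study, without overlap. After 60 min it held 1.75, 0.572 and 0.267 RPM at 1.5 μM (39, 4 and 3 reads) and 0.156, 0.129 and 0 RPM in vehicle (1, 2 and 0 reads). The 60 min groups did not overlap either, but on very few reads, and replicate 1 alone holds most of the compound reads. In the second study codon 5 held 7.01% of HSD17B11 footprints with the compound, the largest share after codon 16.

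Together, the first 20 codons of HSD17B11 held 60.1%, 54.0% and 55.4% of its footprints at 1.5 μM after 10 min, 25.4%, 15.8% and 25.2% at 0.3 μM, and 8.63%, 6.71% and 8.65% in vehicle. After 60 min they held 51.9%, 55.9% and 71.2%, then 23.1%, 19.9% and 30.4%, and 12.4%, 9.90% and 10.5% in the same order of groups. Replicate 3 at 1.5 μM and 60 min was the highest of all libraries. Wilson 95% intervals of single libraries reached from 49.2% to 74.4% at 1.5 μM, from 14.2% to 33.6% at 0.3 μM and from 5.63% to 15.03% in vehicle in the first study, and they cover counting error only.

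In the second study the share on codons 1 to 20 was 35.1% and 36.5% at 1.5 μM and 8.27% and 8.11% in vehicle. Across the 8 vehicle ribo-seq libraries it stayed between 6.71% and 12.4%. The mRNA-seq libraries gave 8.89% and 7.59% with the compound and 8.90% and 11.5% with vehicle. That difference of -1.95 points did not pass a two-sided exact permutation test (p = 0.3333, adjusted p = 1 over 13 tests), and 0.3333 is the smallest p that 2 against 2 libraries allow.

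**Figure D2:**
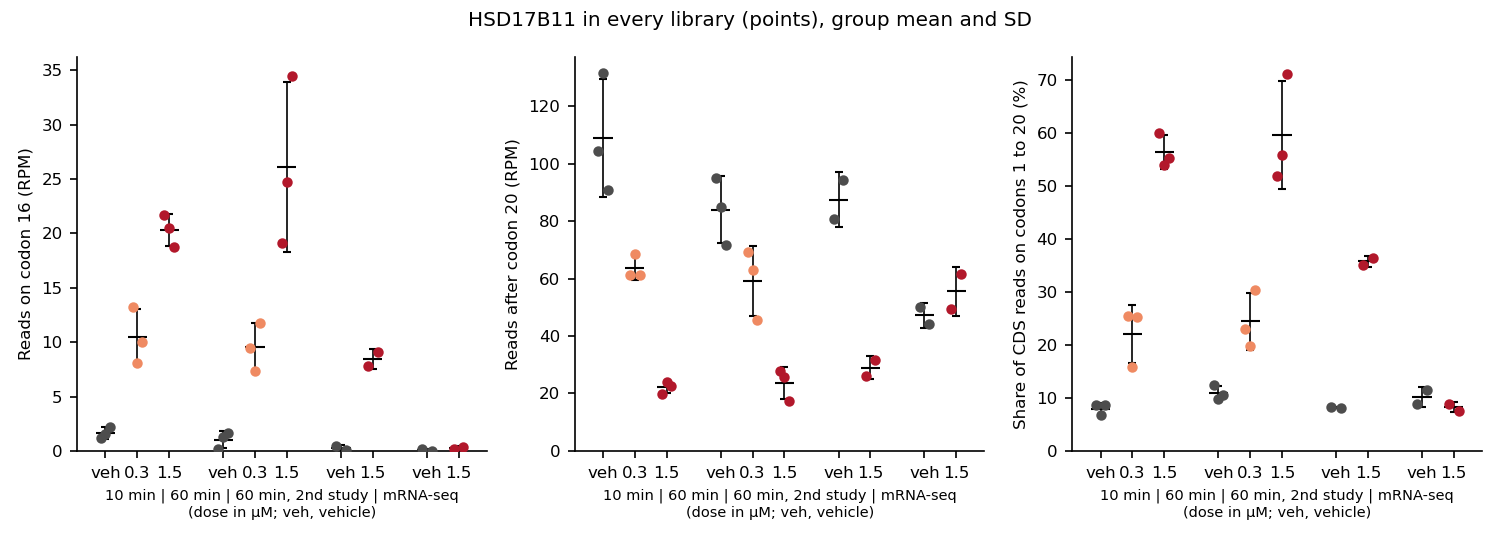
HSD17B11 in each library, as reads on codon 16 (left, RPM), reads after codon 20 (middle, RPM) and the share of CDS reads on codons 1 to 20 (right, %), by treatment, time and study, with bars for the group mean and SD. Reads on codon 16 climb with dose to a mean of 26.1 RPM at 1.5 μM and 60 min, reads after codon 20 go down with dose from 108.9 to 22.1 RPM at 10 min, and the mRNA-seq libraries show neither pattern.

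Footprints 3ʹ to the peak were sparser with the compound. After codon 20, HSD17B11 had a mean 22.1 ± 2.14 RPM at 1.5 μM, 63.7 ± 4.13 at 0.3 μM and 108.9 ± 20.7 in vehicle (SD, n = 3) after 10 min. At 60 min the means were 23.7 ± 5.46, 59.2 ± 12.2 and 83.9 ± 11.6 RPM. The second study gave 29.02 ± 3.91 RPM at 1.5 μM and 87.5 ± 9.58 in vehicle (SD, n = 2). Relative to vehicle the reads after codon 20 were thus at 0.203 times its level at 10 min, 0.282 times at 60 min and 0.332 times in the second study for 1.5 μM, and at 0.585 and 0.706 times for 0.3 μM, with no overlap of compound and vehicle libraries in any of these.

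Each segment of the HSD17B11 CDS after codon 20 had a lower mean with the compound. At 60 min, codons 21 to 100 held 6.11 RPM at 1.5 μM and 26.9 RPM in vehicle, codons 101 to 200 held 9.92 and 30.9 RPM, and codons 201 to 301 held 7.64 and 26.1 RPM. Among the reads after codon 20 those 3 segments took 26.1%, 41.9% and 32.0% at 1.5 μM and 31.6%, 37.3% and 31.0% in vehicle. Each pair of shares at 60 min differed by less than 1 SD of the vehicle libraries, but the other sets differed by more in some segments. At 10 min codons 21 to 100 took 25.1% at 1.5 μM and 31.7% ± 4.29 in vehicle, and codons 101 to 200 took 43.7% and 35.4% ± 5.78. In the second study the difference ran the other way along the CDS, with 44.7% and 38.03% ± 1.24 on codons 21 to 100 and 26.8% and 32.9% ± 0.344 on codons 201 to 301.

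Vehicle cells had footprint peaks of their own on HSD17B11. Codon 50 held 4.23 ± 0.658 RPM at 10 min, 4.09 ± 2.00 at 60 min and 3.597 ± 0.473 in the second study, the highest of any codon in those groups. At 1.5 μM it held 0.686, 0.593 and 0.710 RPM. As a share of the reads after codon 20, codon 50 was at 3.03% ± 1.4 with the compound and 3.95% ± 0.856 in vehicle at 10 min, at 2.63% ± 0.804 and 4.76% ± 1.75 at 60 min, and at 2.53% ± 1.28 and 4.16% ± 0.996 in the second study. Codon 74 was another vehicle peak, at 2.13, 2.28 and 2.08 RPM in the 3 sets. Codon 300, the last before the stop, held 2.62 and 2.26 RPM in vehicle at 10 min and in the second study, and 1.02 RPM at 60 min.

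The center of density, which is the mean position of the reads on a scale from 0 at the start of the CDS to 1 at its end, was 0.263 ± 0.0113 at 1.5 μM and 0.484 ± 0.0120 in vehicle after 10 min for HSD17B11. It was 0.246 ± 0.0526 and 0.467 ± 0.0267 after 60 min, and 0.315 ± 0.00690 and 0.469 ± 0.00317 in the second study. The lower dose gave 0.412 and 0.418 at 10 and 60 min. Its 60 min libraries overlapped vehicle. In mRNA-seq the values were 0.494 and 0.496 (exact permutation p = 1, adjusted p = 1).

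Dmax is the largest excess of the cumulative read curve of compound over that of vehicle. For HSD17B11 it was 0.482 at codon 20 after 10 min, 0.484 at codon 18 after 60 min and 0.296 at codon 36 in the second study. The Z-scores of HSD17B11, each Dmax divided by the root mean square of Dmax over transcripts of similar read number, were 6.08, 8.91 and 6.34. They ranked 2 of 11422, 1 of 11442 and 6 of 11405 transcripts. The choice of HSD17B11 on these footprints already holds high ranks, so they are a description. Among the paralogs the Z-scores ran from 0.258 to 1.53, below the minimum of 2 that 398, 305 and 271 transcripts reached.

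**Figure D3:**
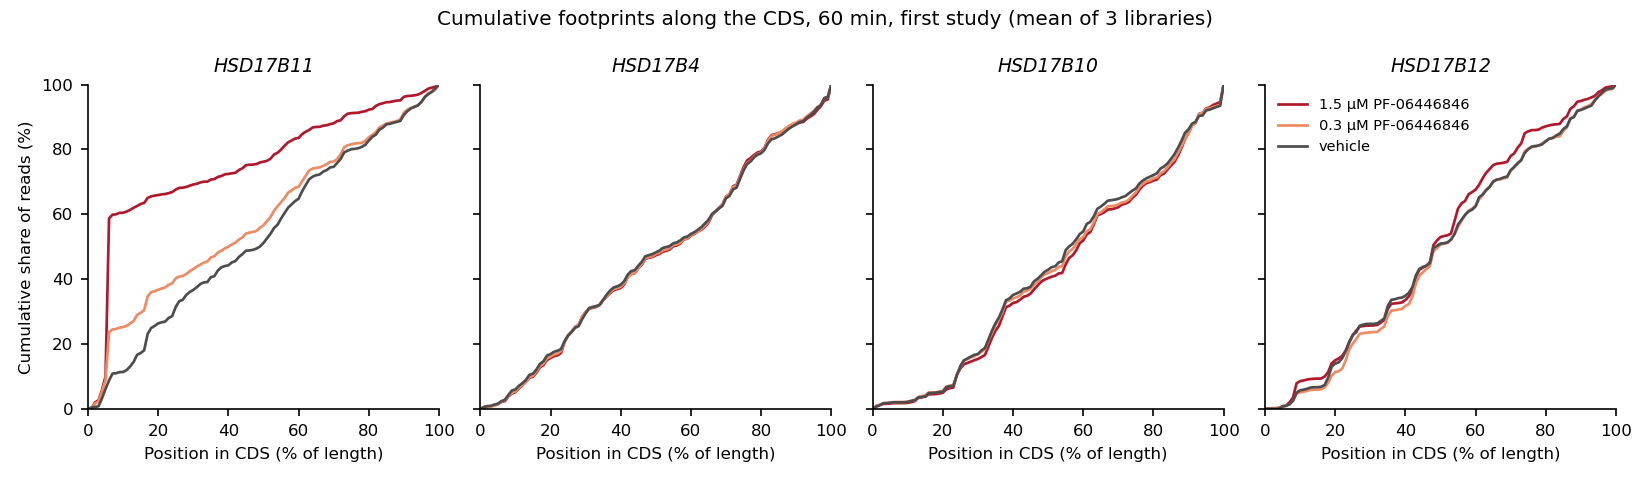
Cumulative share of footprints (y axis, %) against position in the CDS (x axis, % of its length) after 60 min in the first study, as the mean of 3 libraries for 1.5 μM, 0.3 μM and vehicle. HSD17B11 departs from vehicle near the start of its CDS at both doses, to a Dmax of 0.484 at 1.5 μM, while the curves of HSD17B4 and HSD17B10 nearly coincide and that of HSD17B12 at 1.5 μM lies a little above vehicle from mid-CDS on.

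Over the whole CDS, where the reads on codon 16 add to the total, the groups lay closer together than after codon 20. HSD17B11 had 49.6, 52.2 and 50.7 RPM at 1.5 μM after 10 min, 82.1, 81.3 and 82.1 at 0.3 μM, and 114.3, 140.9 and 99.4 in vehicle. At 60 min the values were 58.1, 58.1 and 60.7, then 89.9, 78.6 and 65.5, and 108.4, 94.4 and 80.2 RPM, so that 0.3 μM overlapped vehicle at 60 min and 1.5 μM did not. Within the 60 min pairs of equal replicate number, however, HSD17B11 was lower at 0.3 μM in 3 of 3, with a ratio of the means of 0.827. The second study had 40.4 and 50.0 RPM at 1.5 μM and 88.0 and 102.6 in vehicle.

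On the log2 scale of edgeR, footprints over the CDS of HSD17B11 were at -1.16 (SE 0.124) at 1.5 μM and -0.50 (SE 0.131) at 0.3 μM after 10 min. They were at -0.67 (SE 0.136) and -0.28 (SE 0.140) after 60 min, and at -1.07 (SE 0.114) in the second study. Counting reads 3ʹ to the Dmax codon instead gave -2.20 (SE 0.144), -1.82 (SE 0.177) and -1.66 (SE 0.123) for 1.5 μM at 10 min, at 60 min and in the second study.

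The mRNA level of HSD17B11 was not used to choose it and could be tested. It was 54.3 and 66.7 RPM with 1.5 μM and 55.2 and 49.8 RPM with vehicle, and the groups overlapped. RPM gives a level relative to the other CDS reads of a library. In bulk samples fewer cells with a transcript and less of it per cell cannot be told apart. The log2 fold change was 0.19 (SE 0.135), which did not pass the test (quasi-likelihood test of edgeR, Benjamini-Hochberg adjusted p = 0.999). Leaving out 1 library at a time, it ran from 0.02 to 0.35. HSD17B4 (0.07, SE 0.0859), HSD17B10 (-0.06, SE 0.0826) and HSD17B12 (-0.14, SE 0.148) did not pass it either. Among all 11812 transcripts tested 0% were called at a false discovery rate (FDR) of 0.1, 228 had an unadjusted p under 0.05, and DESeq2 called 1.

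Footprints per mRNA were lower with the compound for HSD17B11, a difference that its choice on footprints already holds. The ratio of ribo-seq to mRNA-seq RPM, which stands for translational efficiency (TE), was for HSD17B11 0.745 and 0.751 with the compound in replicates 4 and 5 and 1.60 and 2.06 with vehicle. For HSD17B4 it was 2.39 and 2.68 against 2.85 and 2.79, for HSD17B10 it was 1.12 and 1.06 against 1.00 and 1.095, and for HSD17B12 it was 3.05 and 3.16 against 2.76 and 2.48. The log2 change of TE was -1.27 (SE 0.201) for HSD17B11 and -0.15 (SE 0.120), 0.06 (SE 0.102) and 0.26 (SE 0.136) for the paralogs, none of which was called (adjusted p = 1.00 in edgeR for each). Of 11799 transcripts 0.0339% were called for TE, 357 had an unadjusted p under 0.05, and DESeq2 called 11.

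HSD17B4, the D-bifunctional protein of peroxisomal beta-oxidation, was the most abundantly read member by total reads. Its footprints over the CDS were 594.6, 617.1 and 624.8 RPM at 1.5 μM after 10 min and 794.3, 786.4 and 643.4 RPM in vehicle, without overlap. After 60 min they were 739.2, 575.1 and 574.7 RPM against 746.9, 584.3 and 611.8 RPM, and the groups overlapped although HSD17B4 was lower with the compound in 3 of 3 pairs. The log2 fold changes were -0.22 (SE 0.102) at 10 min, -0.04 (SE 0.129) at 60 min and -0.08 (SE 0.0739) in the second study. None passed (edgeR, adjusted p = 0.281, 1.00 and 0.999), although without vehicle replicate 3 the 10 min value was -0.30 with an adjusted p of 0.0713, in a fit that called 1656 of 11130 transcripts.

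HSD17B10, of isoleucine breakdown and mitochondrial RNase P, had 253.1, 254.6 and 268.7 RPM at 1.5 μM after 10 min and 228.2, 221.0 and 254.4 RPM in vehicle. At 60 min it had 219.9, 254.5 and 241.7 RPM against 223.6, 252.4 and 255.8 RPM. The libraries overlapped at both times. Its log2 fold changes were 0.20 (SE 0.102), -0.03 (SE 0.128) and 0.00 (SE 0.0687), the last in the second study, and none passed (edgeR, adjusted p = 0.328, 1.00 and 0.999).

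HSD17B12, the 3-ketoacyl-CoA reductase of fatty acid elongation, had 87.9, 80.4 and 76.9 RPM at 1.5 μM after 10 min and 93.6, 98.2 and 74.1 RPM in vehicle. At 60 min it had 104.6, 93.7 and 72.2 RPM against 79.8, 80.9 and 67.5 RPM, again with overlap but higher with the compound in 3 of 3 pairs. In the second study it had 73.3 and 76.9 RPM against 68.9 and 69.2 RPM, without overlap. With the replicate number as a block the 60 min value was 0.23 (edgeR adjusted p = 0.534), and that of HSD17B4 was -0.04 (adjusted p = 0.928). The log2 fold changes were -0.06 (SE 0.118), 0.24 (SE 0.150) and 0.12 (SE 0.0794), and none passed (edgeR, adjusted p = 0.802, 1.00 and 0.999).

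The 0.3 and 1.5 μM comparisons share their vehicle libraries. At 0.3 μM the log2 fold changes of the paralogs ran from 0.00 to 0.11 at 10 min and from -0.03 to 0.13 at 60 min, with none called. No transcript at all was called at that dose (0% of 11131 and 0% of 11141), with 104 and 97 at an unadjusted p under 0.05 and 0 and 0 by DESeq2. For 1.5 μM the share of all transcripts called over the CDS was 0.851% at 10 min, 0.0726% at 60 min and 0.115% in the second study. Of the paralogs, 0 were called in each of these comparisons by edgeR and by DESeq2. HSD17B4 at 10 min alone had an unadjusted edgeR p under 0.05, as did 1953 of 11045 transcripts there. In reads 3ʹ to Dmax or codon 50 the called shares were 3.95%, 0.224% and 0.346%, and no paralog was called there either. The 60 min libraries shared a deviation by replicate number, and with that number as a block 51 transcripts in place of 8 were called at 60 min, the paralogs still not among them.

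**Figure D4:**
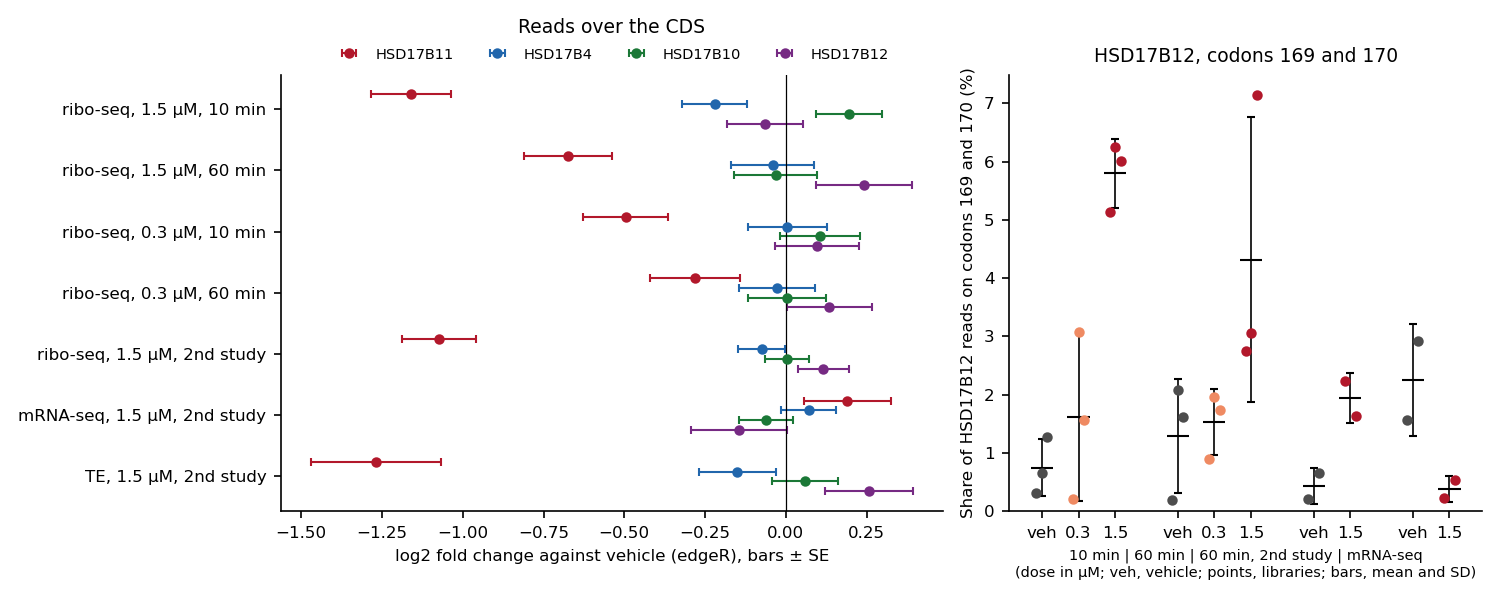
Left, log2 fold changes of CDS reads and TE against vehicle (x axis, edgeR, bars ± SE) for the 4 members in each comparison. Right, share of HSD17B12 reads on codons 169 and 170 (y axis, %) in each library with the group mean and SD. HSD17B11 lies left of 0 in every ribo-seq comparison and in TE, from -0.28 to -1.27, and at 0.19 in mRNA-seq, while the paralogs lie between -0.22 and 0.26, and the HSD17B12 share is 5.80% at 1.5 μM and 0.745% in vehicle at 10 min.

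The start of the CDS was tested in the paralogs as well. Codons 1 to 20 of HSD17B4 held 1.32%, 1.56% and 0.724% of its footprints at 1.5 μM after 10 min and 0.475%, 0.570% and 0.531% in vehicle, so the groups did not overlap. This reached the smallest exact permutation p for 3 against 3 (p = 0.1, adjusted p = 1 over 13 tests). How often the groups were apart in this share over all transcripts was not measured. At 60 min the means of HSD17B4 were 0.864% and 1.00%, with overlap (exact permutation p = 0.7). In the second study they were 1.17% and 1.31%, without overlap but in the other direction (exact permutation p = 0.3333).

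HSD17B10 held 2.44% ± 0.340 of its footprints on codons 1 to 20 at 1.5 μM and 1.49% ± 0.735 in vehicle at 10 min, 1.84% ± 0.462 and 2.09% ± 0.305 at 60 min, and 3.66% ± 1.32 and 3.01% ± 0.123 in the second study. HSD17B12 held 1.99% ± 1.42 and 1.51% ± 0.539, then 1.20% ± 0.419 and 1.04% ± 0.750, and 2.75% ± 1.83 and 2.19% ± 0.116 in the same order. All of these overlapped, and their exact permutation p ran from 0.2 to 1. Codon 16 itself held at most 1.12 RPM in any ribo-seq library of HSD17B10, at most 1.03 RPM in HSD17B12 and at most 0.451 RPM in HSD17B4. The lowest codon 16 value of HSD17B11 at either dose was 7.33 RPM.

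**Figure D5:**
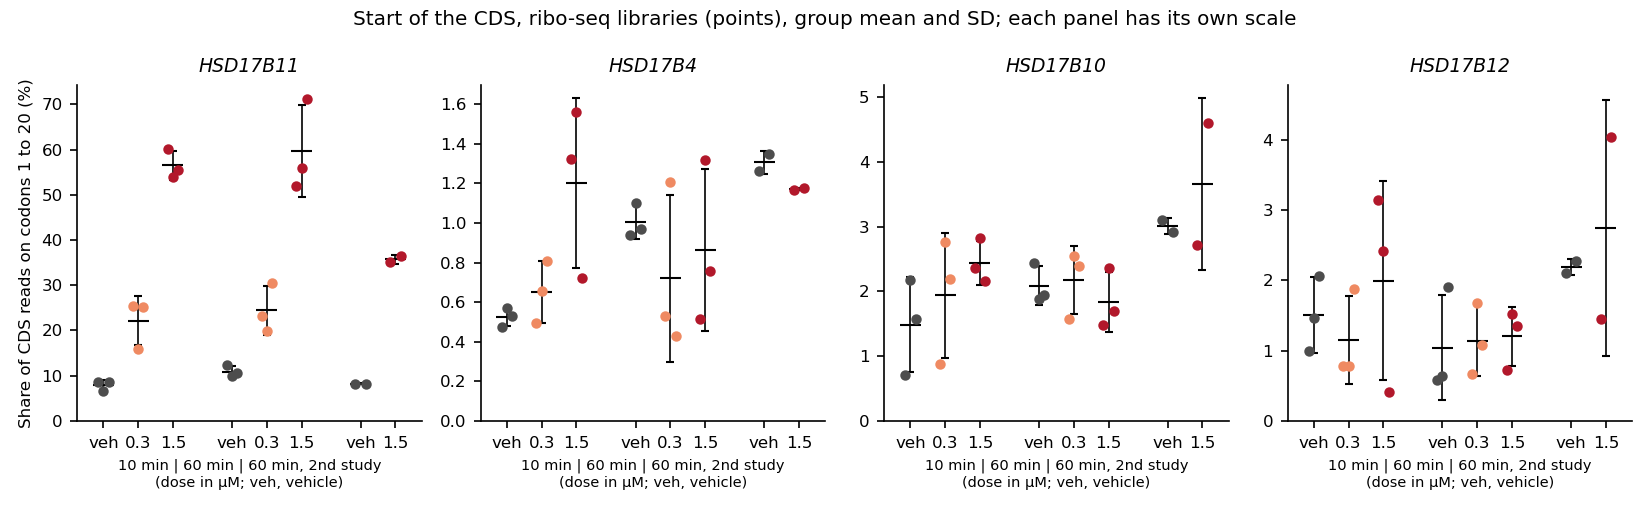
Share of CDS footprints on codons 1 to 20 (y axis, %, own scale in each panel) for the 4 members in every ribo-seq library (points), by dose, time and study, with bars for the group mean and SD. HSD17B11 goes from 10.9% in vehicle to 24.5% at 0.3 μM and 59.7% at 1.5 μM after 60 min, while the highest paralog value in any library is 4.59%, in HSD17B10.

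The center of density of the paralogs differed little. HSD17B4 was at 0.523 at 1.5 μM and 0.521 in vehicle after 10 min, and HSD17B10 was at 0.571 and 0.583. HSD17B12 was at 0.497, 0.477 and 0.498 with the compound and 0.516, 0.550 and 0.527 with vehicle, without overlap (means 0.491 and 0.531, exact permutation p = 0.1, adjusted p = 1). Its values at 60 min, 0.489 and 0.510, overlapped, and so did those of the second study, 0.518 and 0.519. How often the groups were apart in the center of density over all transcripts was not measured.

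HSD17B12 had a small peak of its own inside the CDS with 1.5 μM in the first study. Codons 169 and 170 were chosen after their values were seen, as the codons with the largest gain in share at 1.5 μM after 10 min, so that comparison is a description. They held 5.13%, 6.25% and 6.02% of HSD17B12 footprints with the compound (31, 49 and 44 reads) and 0.310%, 0.653% and 1.27% with vehicle (5, 8 and 8 reads), without overlap. Wilson 95% intervals of single libraries ran from 3.64% to 8.17% with the compound and from 0.132% to 2.49% with vehicle.

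In libraries not used for that choice, codons 169 and 170 of HSD17B12 held 2.75%, 3.05% and 7.14% at 1.5 μM after 60 min and 0.195%, 2.07% and 1.62% in vehicle. The libraries, with means of 4.32% and 1.29%, did not overlap and were higher with the compound in 3 of 3 pairs. The two-sided exact permutation p was the smallest that 3 against 3 allow (p = 0.1), in a test that did not use the pairs. The second study gave 2.24% and 1.63% against 0.211% and 0.650%, higher in 2 of 2 pairs (exact permutation p = 0.3333, the smallest for 2 against 2). They were not the codons with the largest gains there, since codons 180, 63, 150 and 175 gained 1.26, 0.981, 0.912 and 0.904 points and codon 170 came next with 0.884. At 60 min in the first study codons 170 and 169 gained most, by 1.58 and 1.44 points. At 0.3 μM the means were 1.61% at 10 min (0.197%, 3.08% and 1.56%) and 1.53% at 60 min, and the libraries overlapped those of vehicle. The 10 min vehicle libraries had been used in the choice of these codons. In mRNA-seq the same codons held 0.382% with the compound and 2.24% with vehicle, on 1 and 2 reads with the compound and 7 and 18 with vehicle, so the difference there ran the other way (exact permutation p = 0.3333).

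At the end of the CDS, the codon before the stop was the highest of HSD17B4, with a mean 3.90% of its footprints at 1.5 μM and 3.21% in vehicle at 60 min. In HSD17B10 the same codon took 4.81% of the footprints in vehicle at 60 min, its highest value in that group. It took 3.19% of them at 1.5 μM, again the highest codon. In vehicle at 60 min HSD17B11 had a mean 1.04% there, and HSD17B12 ran from 0.0796% to 1.32%.

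Per length, in RPM divided by the kilobases of CDS (RPKM), HSD17B10 and HSD17B4 stood highest in vehicle footprints, at 310.3 ± 22.5 and 300.3 ± 40.4 after 60 min, and did not differ beyond their spread. HSD17B11 followed at 104.4 ± 15.6 RPKM and HSD17B12 at 81.0 ± 7.93 RPKM (SD, n = 3). With 1.5 μM HSD17B11 was at 65.3 ± 1.70 RPKM, below HSD17B12 at 96.0 ± 17.6 RPKM, without overlap in either group, so their order was turned. The choice of HSD17B11 on footprints already holds its lower level, so the turn is a description. That level includes codon 16, with a mean 44.1% of HSD17B11 reads at 1.5 μM and 60 min. In mRNA-seq of vehicle cells HSD17B10 was at 284.1 RPKM, HSD17B4 at 96.5, HSD17B11 at 58.1 and HSD17B12 at 28.2. All 4 levels were apart by more than the spread of their 2 libraries.

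The other family members with reads were less abundant in footprints. HSD17B2, which inactivates estradiol and testosterone, had a median 31.7 RPKM over 22 ribo-seq libraries, and HSD17B7, of cholesterol synthesis, had 22.6 RPKM. HSD17B14 was at 5.36 RPKM, HSD17B1, which makes estradiol, at 2.23 RPKM, and HSD17B3, which makes testosterone, at 0.242 RPKM. HSD17B8 was listed at 0 reads in all 26 libraries, mRNA-seq included, where 3 reads correspond to 0.135 to 0.468 RPM. The authors filtered reads by their number of equal best sites and counted 1 isoform per gene, and whether either set the 0 was not tested, so it is not read as a lack of expression. RDH10, a retinol dehydrogenase related to HSD17B11, had 44.4 RPKM. Of the 6 HSD17B genes found beside the members, 4 passed the filter on low counts in ribo-seq. Neither those 4 nor RDH10 were called in any comparison of CDS reads or TE (edgeR). HSD17B6, HSD17B13 and SDR16C5 were not analysed here.

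Partners of the members were read from 4 lists, beside a share called of 0.851% at 10 min and 0.0726% at 60 min over all transcripts, at which lists of this size tell little by their calls. Of 20 lipid droplet proteins tested, where HSD17B11 resides, 0 were called at 10 or 60 min for 1.5 μM, and their median log2 fold change at 60 min was 0.00 against -0.00 over all transcripts, from CIDEB at -0.33 to HSD17B7 at 0.26. CIDEB was instead the highest of the lipid droplet list at 10 min, at 0.52, and in the second study, at 0.33. Among 15 peroxisomal genes, which work with HSD17B4, ABCD3, a transporter of acyl chains into the peroxisome, fell by 0.52 on the log2 scale at 10 min (SE 0.108, edgeR adjusted p = 0.0651), and at 60 min the list ran from PEX19 at -0.37 to ACOT8 at 0.21 with none called. In the second study the peroxisomal list ran from ACOX2 at -0.42 to PEX19 at 0.16, so PEX19 changed sign. Of 13 genes of isoleucine breakdown and mitochondrial RNase P, partners of HSD17B10, 0 were called, with a median of -0.05 at 60 min from BCKDHA at -0.55 to ACAT1 at 0.08. The median of these genes was -0.14 at 10 min and -0.02 in the second study. Of 10 elongation genes, partners of HSD17B12, 0 were called, with a median of 0.16 from ELOVL6 at 0.02 to ELOVL1 at 0.24. In the second study, at the same dose and time, that list had a median of 0.02 and ran from ELOVL6 at -0.17 to HACD2 at 0.15. At an unadjusted p under 0.05 the 4 lists had 3 genes each at 10 min and 0, 2, 2 and 0 at 60 min, against 1953 of 11045 and 242 of 11021 over all transcripts.

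The transcripts with the pattern most like that of HSD17B11 were sought over the 18 ribo-seq libraries of the first study, by Pearson's r of log2(CPM + 1) of reads after codon 50 among 8757 transcripts. RPL27 (r = 0.98), PCBP1 (0.95), PCBP2 (0.94), MDK (0.94) and MST1 (0.93) came first. The authors report that PCBP1 and PCBP2 resemble each other closely in sequence, with most of their reads ambiguous between them. These entries are therefore not separate examples. The paralogs ranked far lower, with HSD17B4 at 857 (r = 0.56), HSD17B12 at 4094 (r = 0.18) and HSD17B10 at 7168 (r = -0.28). All points share their libraries and depth, and the libraries hold the contrast on which HSD17B11 was chosen, so these values describe likeness only.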

How the data were processed

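Ribo-seq and mRNA-seq libraries of Huh7 cells were made by the authors, who trimmed reads, discarded those from rRNA, aligned what remained by Bowtie 1.1.2 to 1 isoform per expressed gene chosen with kallisto 0.42.5 (GRCh38, per the submitters' processing notes), kept reads with few equal best sites and deposited raw counts of reads per codon at the inferred P-site. The deposited counts were not normalized, and all columns of values were assigned. Transcripts were named with GENCODE v44 (11270 of 12325), and CDS sequences were taken where the annotated length matched (10354). Members and lists were chosen with earlier results of these data known.

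RPM divides by the CDS reads of a library. Reads per CDS were tested with edgeR 4.0.16 (filterByExpr, TMM, glmQLFit, glmQLFTest) in R 4.3.3, only compared groups in a fit, no block, FDR 0.1, p-values adjusted over all transcripts tested. The SE was taken as the absolute log2 fold change divided by the square root of the F statistic of that test. TE was the interaction of assay and treatment. Dmax used pooled replicates, a minimum of 10 reads per group, Z-scores within bins of 300 transcripts and a minimum Z of 2. Reads 3ʹ to Dmax, or to codon 50 below that Z-score, were compared likewise. Shares and centers of density were compared by two-sided exact permutation tests, adjusted over 13 tests each. These tests did not use the pairs of equal replicate number. Alternatives were DESeq2 1.42.0, its size factors, no low-count filter, an FDR of 0.05, a replicate block, other codons, a Z-score of 3 and each library left out. Reads after codon 20 were added after seeing the data. The steps were tested on simulated data. Python 3.11.15, numpy 2.4.6, pandas 2.3.3, scipy 1.17.1 and matplotlib 3.10.9 were used.

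Named genes were the 4 members, other HSD17B and SDR16C genes in the files, from each partner list the genes called and the highest and lowest at 60 min, and the 5 genes of highest likeness (at least 50 mean reads). Replicate libraries differed by more than counting noise (chi-square per transcript 4.62 to 55.2), so none was a duplicate. Same-numbered compound and vehicle libraries deviated together at 60 min (correlation 0.548, 0.419 and 0.593 for 1.5 μM, 0.456, 0.454 and 0.597 for 0.3 μM), so there the numbers pair the libraries. At 10 min the correlations were 0.216, 0.153 and 0.582 for 0.3 μM and 0.215, 0.250 and 0.0529 for 1.5 μM. These were weaker but for replicate 3 at 0.3 μM, so whether the numbers pair the 10 min libraries is not settled.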

Additional observations from a re-analysis of the deposited data

Results flagged for a closer look

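HSD17B4 had opposite differences in the share of footprints on codons 1 to 20 at 10 min in the first study and at 60 min in the second. At 1.5 μM the share was 0.677 points above vehicle after 10 min in the first study, with every compound library above every vehicle library, and -0.135 points from vehicle in the second study at 60 min, with every compound library below. At 60 min in the first study the share was 0.864% with the compound and 1.00% with vehicle, with overlapping libraries and the same sign as in the second study. The difference between the effects was not tested.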

How the results depend on the processing

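The direction of HSD17B11 held in footprints over its CDS, in reads 3ʹ to Dmax, in TE and in the share on codons 1 to 20 under every alternative tried. The choice of HSD17B11 on footprints already holds that direction, so the alternatives show only how the sizes moved. Counting only reads after codon 50 gave log2 fold changes of -2.15 at 10 min, -1.80 at 60 min and -1.63 in the second study for 1.5 μM, -0.75 and -0.49 for 0.3 μM, and -1.82 for TE, and reads after codon 20 gave -2.23, -1.83, -1.59, -0.73, -0.51 and -1.82. Its share difference was 40.3 points at 10 min and 25.5 in the second study on codons 1 to 50, and 28.5 there without the last 2 codons. The difference in its center of density was -0.162 in the second study without the last 2 codons, and without the first 50 codons it was 0.00204, 0.0153 and -0.0318, a window that holds no peak at codon 16.

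The number of transcripts called was less stable, and the cause was not tested. CDS reads at 10 min gave 29 at an FDR of 0.05, 516 by DESeq2 and 195 after codon 50, those at 60 min 16 by DESeq2 and 19 after codon 50, the second study 29 after codon 50, mRNA-seq 1 by DESeq2, and TE 2 at an FDR of 0.05, 11 by DESeq2 and 15 after codon 50. Reads 3ʹ to Dmax at 10 min gave 717 by DESeq2, 228 at a Z-score of 3 and 195 from codon 50 on. With the replicate number as a block, 1196, 51 and 129 were called in CDS reads at 10 min, at 60 min and in the second study, and 13 in TE. No call on a paralog changed in these. Reads 3ʹ to Dmax gave 1274, 95 and 156 with that block, where the calls on the paralogs were not compared. The second study has 2 pairs, whose deviations correlated at 0.317 in ribo-seq and 0.0935 in mRNA-seq.

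Leaving out 1 library at a time gave 9 to 1656 calls in CDS reads at 10 min (1656 without vehicle replicate 3, 9 without vehicle replicate 1, 12 without 1.5 μM replicate 1 or 2), 0 to 8 at 60 min (0 without vehicle replicate 2), 10 to 129 in the second study (129 without 1.5 μM replicate 5), 0 to 2 in mRNA-seq, and 1 to 128 in TE (128 without vehicle mRNA-seq replicate 4). Reads 3ʹ to Dmax gave 34 to 1847 (1847 without vehicle replicate 3), 15 to 21 and 33 to 147. Without vehicle replicate 3 at 10 min HSD17B4 was called at -0.30 with an edgeR adjusted p of 0.0713.

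Small differences of the paralogs changed sign. Log2 fold changes without 1 library ran from -0.140 to 0.05001 (60 min), -0.0743 to 0.0542 and -0.103 to 0.0634 (0.3 μM at 10 and 60 min) and -0.165 to 0.00895 (second study) for HSD17B4, from -0.109 to 0.0502 (60 min), -0.0729 to 0.0836 (0.3 μM at 60 min) and -0.0554 to 0.0616 (second study) for HSD17B10, and from -0.000814 to 0.165 for HSD17B12 (0.3 μM at 10 min). HSD17B10 was at -0.00826 after codon 50 in the second study. Share differences ran from -0.367 to 0.0330 points for HSD17B4 at 60 min, from -0.0920 to 1.28, -0.0688 to 0.593, -0.740 to 1.84 and -5.51 to 0.838 for HSD17B12 at 10 and 60 min, in the second study and in its mRNA-seq, and from -0.287 to 1.58 and -0.396 to 0.273 for HSD17B10 in the second study and its mRNA-seq. On codons 1 to 50 the share differences were -0.0851 for HSD17B4 at 10 min, -1.52 for HSD17B12 in the second study and 0.0610 for HSD17B10 in mRNA-seq. The center of density ran from -9e-06 to 0.00539 (10 min) and -0.00560 to 0.00409 (second study) for HSD17B4, from -0.00493 to 0.0298 (60 min) and -0.00610 to 0.00286 (second study) for HSD17B10, from -0.00331 to 0.000994 (second study) and -0.0284 to 0.0263 (mRNA-seq) for HSD17B12, and from -0.0181 to 0.0147 for HSD17B11 in mRNA-seq. Without the last 2 codons it was 0.00158 for HSD17B11 in mRNA-seq and -0.00269 and -0.000757 for HSD17B4 at 10 and 60 min, and without the first 50 it was 0.00235 and 0.00418 for HSD17B10 at 10 min and in the second study. Vehicle libraries had 1 to 20 reads on codon 16 of HSD17B11, which limits the ratios there.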
